A study of Mus musculus with 2 samples.

Results

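The mouse collagen genes were examined as a family in gastrocnemius, the large calf muscle, by DNase-seq, in which DNase I cuts DNA that is not packed on nucleosomes and the cut ends are sequenced. Members were the GENCODE protein-coding genes of build mm10 whose symbols consist of Col, a number, the letter a and a number, which gave 44 genes of 21911. The tissue came from female B6CASTF1/J mice, an F1 cross of C57BL/6J with CAST/EiJ, aged 2 months. There were 2 libraries in 1 group, untreated as far as the labels say and with no control group. The labels call the libraries biological replicates 1 and 2 and number the females differently, but they give both the same donor identifier, so the spread between them may be partly technical. Nothing below is a test between conditions, and collagen genes are not replicates of one another.

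Collagens are extracellular proteins whose chains wind around each other into a rope-like helix. Fibrillar collagens pack into the load-bearing fibrils of tendon, fascia and the sheaths around muscle fibres. Type IV collagens form the sheet-like network of basement membranes, including the one that wraps each muscle fibre and each capillary, and type VI collagens form beaded filaments next to it. FACIT collagens, whose name stands for fibril-associated collagens with interrupted helices, sit on the surface of fibrils. Types II, IX, X and XI are known chiefly from cartilage. In skeletal muscle the fibrillar collagens are made mainly by fibroblasts of the connective tissue and not by the fibres themselves.

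A promoter was scored as accessible where peaks of both libraries lay no more than 1 kb from an annotated start, and the deposited footprints, short stretches inside accessible DNA where cuts are depleted, were matched between libraries where they overlapped by at least 1 bp. Of the collagens, 35 had an entry in the RefSeq promoter table (GRCm38.p6). Col1a1, Col2a1, Col4a3, Col5a2, Col9a3, Col12a1, Col14a1, Col22a1 and Col26a1 had none. The stretches below are shown because they carry the most bases inside footprints of both libraries among the printable upstream sequences of collagens, and capitals mark those bases. They were chosen after their values were seen. Each is the 250 bases 5′ of the RefSeq start, read 5′ to 3′ on the gene's own strand. The gene Col5a1 (chr2:27886175-27886424, plus strand) encodes a chain of the collagen that sets fibril diameter. Its relative Col5a3 (chr9:20815068-20815317, minus strand) encodes another chain of that type, and Col16a1 (chr4:130047590-130047839, plus strand) encodes a FACIT collagen.
Col5a1 upstream: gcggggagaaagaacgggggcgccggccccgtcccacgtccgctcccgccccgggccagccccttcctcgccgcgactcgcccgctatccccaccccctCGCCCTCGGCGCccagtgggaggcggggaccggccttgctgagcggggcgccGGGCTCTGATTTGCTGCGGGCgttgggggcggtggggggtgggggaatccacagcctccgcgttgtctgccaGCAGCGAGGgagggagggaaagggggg
Col5a3 upstream: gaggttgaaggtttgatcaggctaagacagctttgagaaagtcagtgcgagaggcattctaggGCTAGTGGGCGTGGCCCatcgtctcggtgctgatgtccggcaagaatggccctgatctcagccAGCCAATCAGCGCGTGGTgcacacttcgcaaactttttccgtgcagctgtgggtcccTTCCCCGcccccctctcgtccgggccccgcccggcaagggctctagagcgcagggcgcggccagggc
Col16a1 upstream: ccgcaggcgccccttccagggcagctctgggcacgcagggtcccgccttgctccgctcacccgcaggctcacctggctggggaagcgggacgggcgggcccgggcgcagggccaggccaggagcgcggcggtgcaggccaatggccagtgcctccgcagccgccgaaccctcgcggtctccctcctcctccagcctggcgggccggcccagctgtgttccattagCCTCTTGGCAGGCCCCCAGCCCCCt
In Col5a3 all 5 bases of a CCAAT box, whose first base lay 122 bases before the start, fell inside a footprint of both libraries. Of its 2 GGGCGG boxes, both read on the opposite strand, the one whose first base lay 63 bases before the start had 3 bases in such a footprint. The 2 GGGCGG boxes of Col5a1 and the CCAAT and GGGCGG boxes of Col16a1 had none. The upstream stretch of Col9a1 (chr1:24177360-24177609, plus strand), which encodes a FACIT chain of cartilage, is shown for contrast, since neither library had a peak or a footprint in it.
Col9a1 upstream: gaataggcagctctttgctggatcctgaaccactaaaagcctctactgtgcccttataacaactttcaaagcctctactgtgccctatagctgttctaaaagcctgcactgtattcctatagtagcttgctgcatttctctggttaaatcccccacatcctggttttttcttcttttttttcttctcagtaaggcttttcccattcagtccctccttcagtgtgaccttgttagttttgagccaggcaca
The printable upstream stretches of Col1a2 (chr6:4505370-4505492, plus strand) and Col3a1 (chr1:45311288-45311537, plus strand), of the main fibrillar collagens, and of Col6a1 (chr10:76726169-76726294, minus strand), a collagen VI chain, held no base in footprints of both libraries. Those of Col1a2 and Col6a1 are 123 and 126 bases long and leave out the bases next to the start, which are annotated as untranslated. Within 1 kb of a start, Col1a2 did have 2 matched footprints.
Col1a2 upstream: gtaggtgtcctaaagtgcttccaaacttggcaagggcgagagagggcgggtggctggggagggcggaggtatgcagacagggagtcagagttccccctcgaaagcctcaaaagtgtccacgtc
Col3a1 upstream: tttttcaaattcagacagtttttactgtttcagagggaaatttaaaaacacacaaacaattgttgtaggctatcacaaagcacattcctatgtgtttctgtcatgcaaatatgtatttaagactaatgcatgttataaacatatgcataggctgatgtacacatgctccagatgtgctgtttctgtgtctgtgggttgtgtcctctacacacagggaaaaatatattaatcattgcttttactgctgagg
Col6a1 upstream: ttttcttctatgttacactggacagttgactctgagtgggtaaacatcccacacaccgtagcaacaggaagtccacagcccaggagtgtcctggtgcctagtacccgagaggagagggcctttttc
The Col1a2 stretch held 2 GGGCGG boxes. The Col3a1 stretch held a TATAAA whose first base lay 117 bases before the start, and the accessible Col3a1 promoter peak (chr1:45311541-45311740) began just downstream of it. The Col9a1 stretch was 43.6% G and C, against 76.4% in Col5a1, 62.8% in Col5a3 and 75.6% in Col16a1. In Col3a1 it was 35.2%.

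Further sequences come from accessible sites away from starts. The strongest shared peak in a collagen window outside any promoter, ranked by the deposited signal of replicate 1, lay in a coding exon of Col6a3, which encodes the large chain of collagen VI. Its central 300 bases (chr1:90775711-90776010, minus strand) and a 260-base peak upstream of Col6a1 (chr10:76732941-76733200, minus strand), which encodes a further collagen VI chain and was added after its values were seen, read as follows.
Col6a3 exonic peak: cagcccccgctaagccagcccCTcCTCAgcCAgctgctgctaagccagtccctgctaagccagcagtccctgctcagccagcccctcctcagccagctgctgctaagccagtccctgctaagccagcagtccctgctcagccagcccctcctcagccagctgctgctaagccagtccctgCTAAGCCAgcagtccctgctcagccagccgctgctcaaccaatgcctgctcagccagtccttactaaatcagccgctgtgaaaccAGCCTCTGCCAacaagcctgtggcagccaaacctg
Col6a1 upstream peak: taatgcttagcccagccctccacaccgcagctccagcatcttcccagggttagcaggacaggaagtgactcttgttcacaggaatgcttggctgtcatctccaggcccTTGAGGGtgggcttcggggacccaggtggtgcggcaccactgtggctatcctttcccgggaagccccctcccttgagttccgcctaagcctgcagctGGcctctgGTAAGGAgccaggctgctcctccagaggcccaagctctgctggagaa
The Col6a3 stretch held 3 copies of CAGCTG, an E-box, each 63 bases from the next. Shifted by 63 bases against itself, it was equal at 81.4% of 237 bases, so the exon repeats itself at this place. Only 2 bases of the first copy fell inside a footprint of both libraries. The Col6a1 upstream peak held 1 CAGCTG, of which 1 base was in such a footprint, and 1 GGAATG.

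Replicate 1 had 66984 peaks with a median width of 208 bp, and replicate 2 had 258342 peaks with a median of 160 bp. The median peak signal was 0.738 in replicate 1 and 0.364 in replicate 2. Of the peaks, 76.8% in replicate 1 and 20.2% in replicate 2 overlapped the other library, which gave 49160 shared peaks. Replicate 1 had 153010 footprints, replicate 2 had 338761, and 63195 sites matched between them. Neither the scale of the signal nor the sequencing depth is stated, so ranks are used: a percentile is the percentage of the same library's peaks that are weaker. All 5 muscle fibre markers had accessible promoters, with a median percentile of 97.1 in replicate 1 and 98.5 in replicate 2. Markers of other cells were called as well, beside 60.2% of all protein-coding genes. The counts were 4 of 5 for fibroblasts, 4 of 5 for tenocytes (all but Tnmd) and 4 of 6 for chondrocytes. They were 4 of 5 for endothelium and 5 of 5 for mural cells. In whole tissue, fewer cells of a type and less open chromatin per cell cannot be told apart.

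Promoters of 32 of the 44 collagens were accessible in both libraries, 72.7% (95% interval 57.2 to 85.0), beside a background of 60.2% of all protein-coding genes. Taken singly, replicate 1 had a promoter peak at 32 collagens (background 60.8%) and replicate 2 at 38 (background 71.1%). The 32 called genes took in nearly every fibrillar collagen and each type IV chain, whereas 5 of the 12 without the call belong to the cartilage set. Col2a1, Col7a1, Col8a2, Col9a2, Col15a1 and Col17a1 had a promoter peak in replicate 2 but not in replicate 1. The 6 collagens with no promoter peak in either library were Col6a4, Col9a1, Col9a3, Col10a1, Col20a1 and Col28a1. The interval of the collagen share reached below the background, so the count itself did not set the family apart. The shares lay closer together with the shorter deposited lists, where they were 54.5% of collagens and 53.6% of all genes, and with equal numbers of strongest peaks, where they were 61.4% and 58.0%.

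**Figure D1:**
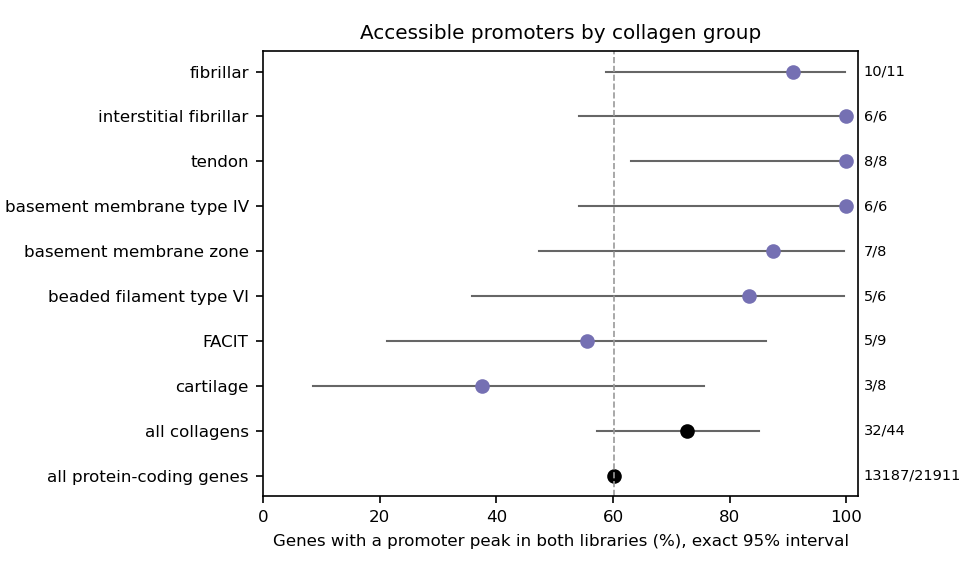
Percentage of genes with a promoter peak in both libraries for 8 groups of collagens, all 44 collagens and all 21911 protein-coding genes. Some groups share genes. Points are shares, horizontal lines are exact 95% intervals that cover counting error only, and the dashed line marks the 60.2% of all genes; tendon (8 of 8) lies to its right and cartilage (3 of 8) to its left, with wide intervals.

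Promoter signal set the collagens further from protein-coding genes at large than the call did. Among called genes, the strongest promoter peak of a collagen had a median percentile of 50.1 in replicate 1 (range 13.3 to 90.6), against 87.9 for all 13187 called genes. In replicate 2 the medians were 88.6 for collagens (range 37.0 to 98.8) and 97.0 for all called genes. The median signal itself was 0.744 for collagens and 2.48 for all called genes in replicate 1, and 1.60 and 5.37 in replicate 2. Only Col16a1 reached the 90th percentile in replicate 1, and 16 of the 32 lay under the 50th. In replicate 2, 16 reached the 90th percentile and 1 lay under the 50th. The order of collagens was much alike in both libraries, with a Spearman rho of 0.93 over the 32 genes, which share their sequence and annotation in both. Col4a1 and Col4a2 entered the rho with the same values, as did Col4a3 and Col4a4. When only the stronger 50% of each library's peaks were kept, 16 of the 32 calls were left, while the share of all genes moved less, to 53.4%.

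**Figure D2:**
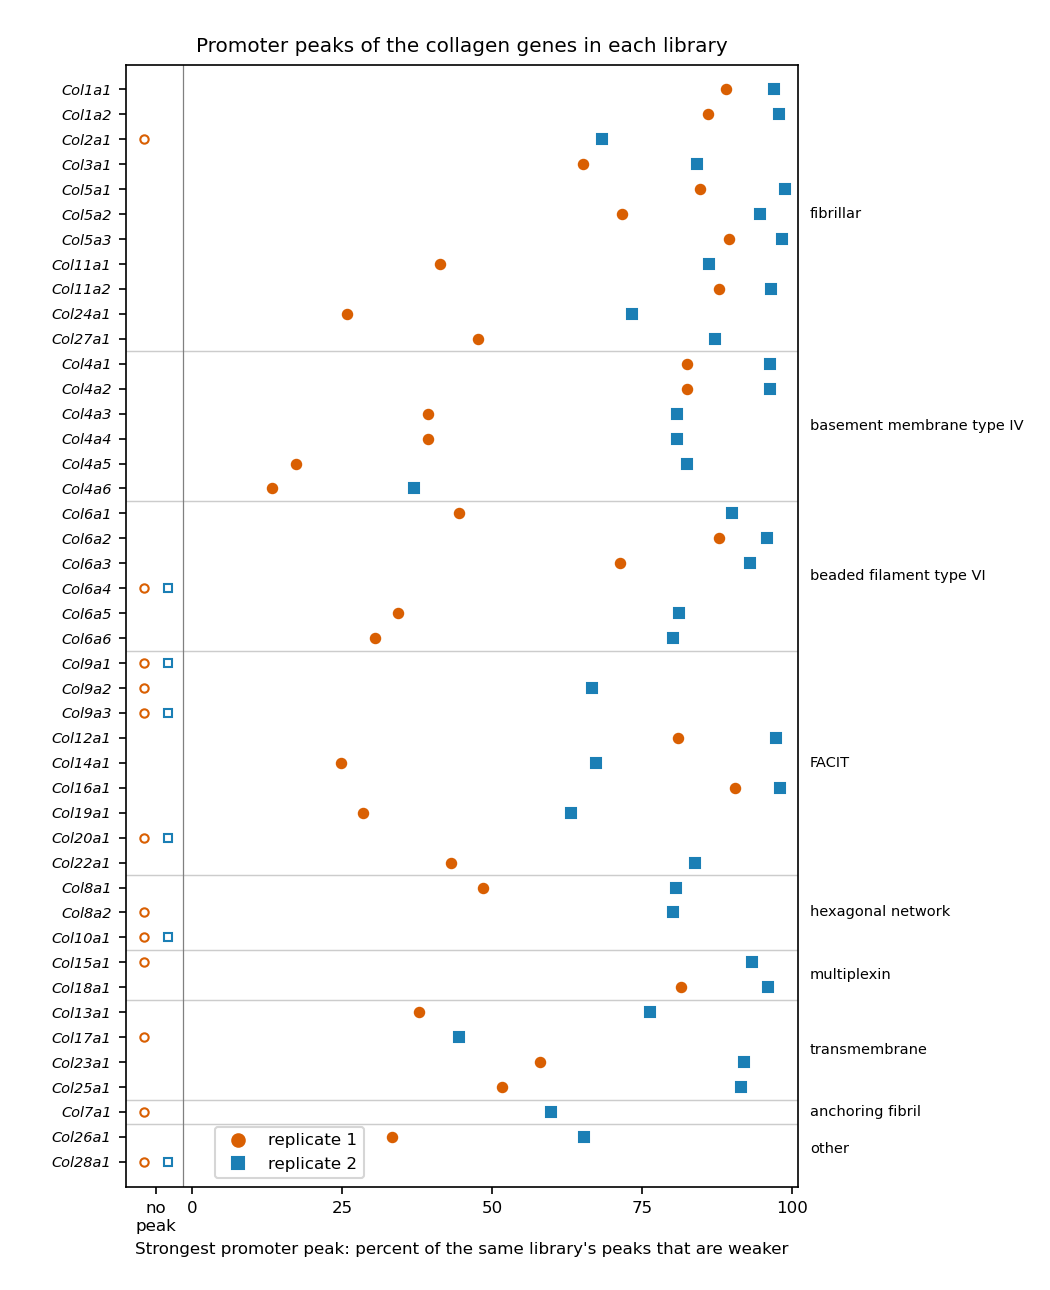
Strongest promoter peak of each of the 44 collagens, as the percentage of the same library's peaks that are weaker, with genes grouped by structural class. Circles are replicate 1, squares replicate 2 and open symbols at the left mark no promoter peak; type I and V genes sit at the right in both libraries, whereas Col4a6 (13.3 and 37.0) is the lowest called gene.

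Base composition moved with these calls. The median CpG observed-over-expected ratio around the 5′ end was 0.43 in collagens and 0.55 in all genes, 0.45 in called collagens and 0.72 in all called genes, and 0.36 in collagens without the call and 0.20 in all genes without it. Collagens had a median of 4 annotated starts and all genes 3. With the gene's own 5′ end as the sole start, 29 collagens were called, beside 55.8% of all genes. Col18a1, Col25a1 and Col27a1 were called at another start alone. The part of base composition and start number in the collagen share was not tested.

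The fibrillar collagens were accessible at 10 of 11 promoters, and the 6 of interstitial tissue at all 6. The background for these and the classes below is 60.2% of all genes. Col1a1 and Col1a2 encode the chains of type I, the main collagen of tendon and fascia. Col1a1 (chr11:94936224-94953042) had a strongest promoter signal of 2.66 in replicate 1 and 5.36 in replicate 2, at the 89.1 and 97.0 percentiles. Col1a2 (chr6:4504814-4541544) had 2.21 and 6.99, at percentiles 86.1 and 97.9. These partners were thus near each other in rank in both libraries. Col3a1 (chr1:45311538-45349706), whose product forms the thin fibrils of distensible tissue, was lower, with 1.03 and 1.15 at percentiles 65.1 and 84.2. Its neighbour Col5a2, a further type V chain, had 1.23 and 3.26 at percentiles 71.7 and 94.7. Col5a1 had 2.05 in replicate 1 and 10.7 in replicate 2, the highest replicate 2 value of any collagen promoter (percentile 98.8). Col5a3 had 2.75 and 8.23 at percentiles 89.5 and 98.3. The stronger 50% of peaks kept all 6 interstitial genes and 7 of the 11 fibrillar genes, beside 53.4% of all genes.

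The remaining fibrillar genes were more uneven. Col11a2, a chain of type XI, had 2.46 and 4.69 at percentiles 87.8 and 96.5, while its partner Col11a1 had 0.626 and 1.30 at percentiles 41.4 and 86.1. Col27a1 had 0.708 and 1.40 at percentiles 47.7 and 87.1, from a peak near an internal start. Col24a1, known from developing bone, had 0.451 and 0.701 at percentiles 25.8 and 73.3. Col2a1, the main collagen of cartilage, had no promoter peak in replicate 1 and 19 in replicate 2, the strongest with a signal of 0.594 at percentile 68.3.

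All 6 type IV genes were called. They lie in head-to-head pairs whose members are transcribed away from each other. The 5′ ends of Col4a1 and Col4a2, which encode the chains of every basement membrane, were 21 bp apart on chromosome 8, and 3 promoter peaks in replicate 1 and 5 in replicate 2 counted for both genes. The peak across the gap had a signal of 1.84 in the first library and 4.55 in the second (percentiles 82.5 and 96.3). Col4a3 and Col4a4, chains of the kidney filter and other specialised membranes, had 5′ ends 72 bp apart and shared both of their promoter peaks in each library, with 0.603 and 0.958 at percentiles 39.3 and 80.8. Col4a5 and Col4a6 on the X chromosome were 1309 bp apart and shared no promoter peak in either library. Col4a5 had 0.345 and 1.05 at percentiles 17.4 and 82.5, and Col4a6 had 0.287 and 0.280 at percentiles 13.3 and 37.0. The order of the pairs was therefore the same in both libraries in so far as Col4a1 and Col4a2 were highest and Col4a6 lowest. Among the stronger 50% of peaks, only 2 of the 6 type IV calls were left.

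Collagen VI, which anchors the muscle fibre's basement membrane to its surroundings, was called at 5 of 6 genes. Col6a2 had 2.45 and 4.03 at percentiles 87.8 and 95.8, Col6a3 had 1.21 and 2.54 at percentiles 71.3 and 93.0, and Col6a1 had 0.667 and 1.79 at percentiles 44.6 and 90.1. These encode the chains of the classical collagen VI heterotrimer, in which Col6a1 ranked last in both libraries. The later-described chains Col6a5 (0.544 and 0.975, percentiles 34.3 and 81.2) and Col6a6 (0.503 and 0.930, percentiles 30.5 and 80.2) ranked lower still. Col6a4 had no peak and no footprint anywhere in its 127 kb window in either library. With the stronger 50% of peaks, 2 collagen VI genes were called.

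Of 9 FACIT genes, 5 were called. Col12a1, found on tendon and fascia fibrils, had 1.73 and 6.05 at percentiles 81.1 and 97.4, and its promoter held 9 matched footprints, the most of any collagen. Col14a1, its close relative, had 0.439 and 0.577 at percentiles 24.8 and 67.4. Col22a1, which marks the junction of muscle and tendon, had 0.650 and 1.13 at percentiles 43.2 and 83.8. Col16a1 had 2.93 and 7.57 at percentiles 90.6 and 98.1, and Col19a1 had 0.480 and 0.510 at percentiles 28.4 and 63.1. Col9a1, Col9a3 and Col20a1 had no promoter peak in either library, and Col9a2 had 1 in replicate 2 only. The FACIT count was 3 with the shorter deposited lists or with equal numbers of the strongest peaks, and 2 with the stronger 50%.

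The multiplexins of the basement membrane zone differed. Col18a1, whose end fragment is endostatin, had 1.76 and 4.25 at percentiles 81.5 and 96.0 at an internal start. Col15a1, found around muscle fibres and capillaries, had no promoter peak in replicate 1 and 6 in replicate 2, the strongest with 2.62 at percentile 93.3, and it was called with promoters of 2 kb. Among transmembrane collagens, Col13a1, found at the neuromuscular junction, had 0.585 and 0.785 at percentiles 37.8 and 76.3. Col23a1 had 0.872 and 2.23, and Col25a1, needed for motor innervation of muscle in the mouse, had 0.767 and 2.07. Col17a1, a hemidesmosome collagen of skin, had 3 weak promoter peaks in replicate 2 alone, at most 0.325. Col8a1, of vessel walls, had 0.720 and 0.947, whereas Col8a2 had a promoter peak in replicate 2 alone. Col7a1, the anchoring fibril of skin, likewise had promoter peaks in replicate 2 alone, and Col26a1 had 0.533 and 0.544. Col10a1, the collagen of hypertrophic cartilage, and Col28a1 had none.

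Grouped by tissue, the tendon set (Col1a1, Col1a2, Col3a1, Col5a1, Col5a2, Col12a1, Col14a1 and Col22a1) was called at 8 of 8. Of its genes, 5 are also in the interstitial fibrillar set given above, so the 2 counts are not separate. The cartilage set (Col2a1, Col9a1, Col9a2, Col9a3, Col10a1, Col11a1, Col11a2 and Col27a1) was called at 3 of 8. The basement membrane zone, type IV with Col15a1 and Col18a1, was called at 7 of 8. The exact 95% intervals were 63.1 to 100% for tendon, 8.52 to 75.5% for cartilage and 47.3 to 99.7% for the basement membrane zone. Those of tendon and cartilage overlapped. Those of cartilage and the basement membrane zone took in the 60.2% of all genes, and that of tendon began just above it. The basement membrane zone interval counts Col4a1 and Col4a2, and Col4a3 and Col4a4, as separate genes, although each pair had the same strongest promoter peak. The called genes of the tendon set had a median percentile of 76.4 in replicate 1 and 95.8 in replicate 2, those of the basement membrane zone 39.3 and 82.5, and the 3 of cartilage 47.7 and 87.1. Without replicate 1 the cartilage count was 5, beside 71.1% of all genes. With the stronger 50% of peaks the counts were 6 for tendon, 1 for cartilage and 3 for the basement membrane zone, beside 53.4%. Of the chondrocyte markers, Acan, which encodes the main cartilage proteoglycan, had no promoter peak in either library and Matn1 had them in replicate 2 alone, while Sox9, Comp, Matn3 and Cnmd were called. Sox9, a transcription factor that drives Col2a1, had signals of 3.21 and 8.89. Their part in the cartilage count was not tested.

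At least 1 shared peak lay in the gene body plus 10 kb either side of 37 of the 44 collagens, beside a background of 71.5%. Collagen windows held a median of 4 shared peaks and all genes 2, but collagen genes are long, with a median window of 134 kb against 37.4 kb. Per 10 kb of window the medians were 0.25 for collagens and 0.32 for all genes. That order turned round with no flank, where they were 0.247 for collagens and 0.0776 for all genes, and with the peaks of replicate 2 alone, where they were 1.11 and 0.973. The muscle fibre markers had a median of 3.54 per 10 kb. Collagens without any shared peak were Col6a4, Col9a1, Col9a2, Col10a1, Col17a1, Col20a1 and Col28a1. Col6a4 and Col9a1 were the 2 whose windows held no peak in either library.

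**Figure D3:**
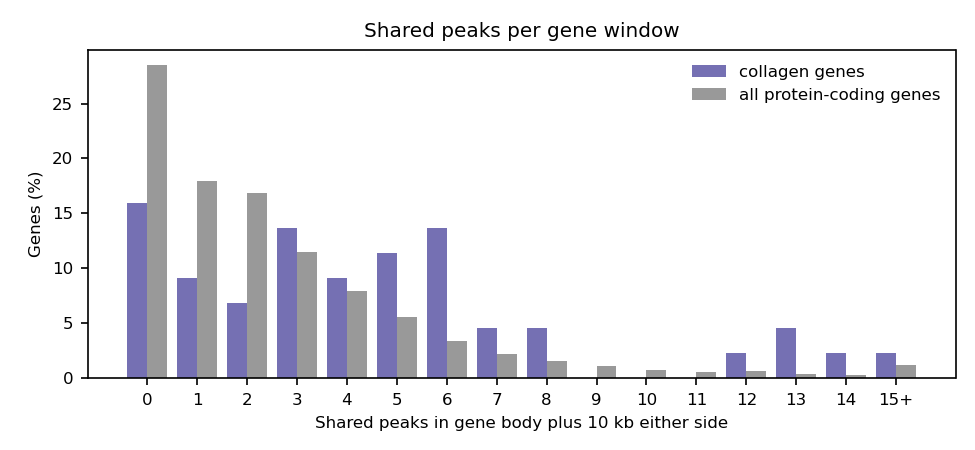
Percentage of genes by the number of shared peaks in the gene body plus 10 kb either side, for the 44 collagens (left bars) and all 21911 protein-coding genes (right bars). No shared peak was found for 15.9% of collagens and 28.5% of all genes; the last pair of bars pools 15 and more.

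The windows together held 192 distinct shared peaks, of which 10 lay in more than 1 collagen window. By midpoint, 97 (50.5%) were in introns, 51 at a collagen promoter, 20 in the flanks, 16 at the promoter of another gene and 8 in exons. Peaks at collagen promoters had a median percentile of 47.7 in replicate 1 and 83.8 in replicate 2, against 71.8 and 88.3 for those at other genes' promoters. The strongest shared peak of any collagen window, in both libraries, belonged to the promoter of Pef1 beside Col16a1, with 7.59 in replicate 1 and 20.3 in replicate 2. The promoters of Pfkfb4 beside Col7a1 (5.11 and 12.6) and of Rxrb and Slc39a7 beside Col11a2 (4.77 and 8.42) came next by the signal of replicate 1. Shared peaks in a window thus do not all belong to the collagen.

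**Figure D4:**
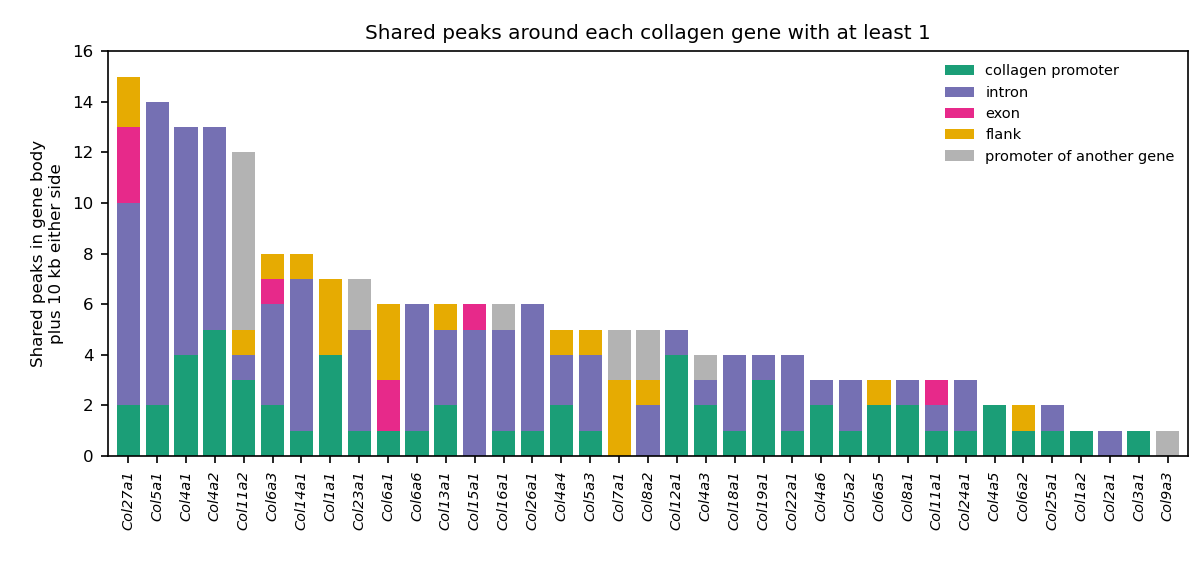
Number of shared peaks in the window of each of the 37 collagens that had at least 1, stacked by location. Col27a1 has 15 and Col5a1 14; of the 12 of Col11a2, 7 lie at the promoter of another gene.

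The 5 collagens with the most shared peaks were Col27a1 with 15, Col5a1 with 14, Col4a1 and Col4a2 with 13 each and Col11a2 with 12. In the Col27a1 window, replicate 1 had 19 peaks and replicate 2 had 162. Col5a1 had 27 in replicate 1 and 105 in replicate 2, and 12 of its shared peaks were intronic. Col4a1 had 13 and 182 peaks, and 9 of its shared peaks were intronic, the strongest with 2.18 and 5.96 (chr8:11273541-11274000). Col4a2 had 13 peaks in replicate 1 and 91 in replicate 2. Col11a2 had 15 and 22.

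Per 10 kb the order was Col11a2 with 2.54, Col1a1 with 1.90, Col6a1 with 1.61, Col27a1 with 1.06 and Col8a2 with 1.05. Col1a1 had 18 peaks in replicate 1 and 35 in replicate 2, and besides its promoter it had strong flanking sites. The upstream one (chr11:94928801-94929140), centred at -7.25 kb from the start, had 2.41 and 7.89, and the one past the gene's 3′ end (chr11:94958081-94958560) had 2.75 and 6.85. The upstream site was at percentiles 87.5 and 98.2 and the downstream site at 89.5 and 97.8, close to the Col1a1 promoter at 89.1 and 97.0. The printed Col6a1 upstream peak, centred at -6.90 kb from the start, had 2.39 and 7.21, while the Col6a1 promoter had 0.667 and 1.79. The printed Col6a3 exonic site had 3.52 and 6.85, also above its own promoter. For these 2 collagen VI genes a shared peak away from the promoter was thus stronger than the promoter in both libraries. The same held for Col1a1 at its downstream site and for Col4a1 at its strongest intronic peak. Col27a1 also had an intronic peak of 1.46 and 3.77, above its promoter at 0.708 and 1.40. The pattern was not confined to these genes. Col4a4, Col6a6, Col13a1, Col14a1 and Col23a1, among others, also had an intronic shared peak above the promoter in both libraries. It did not hold for Col5a1, Col6a2 or Col12a1, among others. How often it occurs among all genes was not counted.

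Of the muscle-attachment and basement membrane genes, Col14a1 had 8 shared peaks, 6 of them intronic, Col13a1 and Col15a1 had 6 each, Col12a1 had 5, and Col22a1 and Col18a1 had 4 each. Col15a1 lacked the promoter call yet had an intronic site (chr4:47293841-47294420) with 2.73 and 4.05 and 4 matched footprints. Col12a1 was the reverse, with 4 of its 5 shared peaks at the promoter. Col2a1 had 1 shared peak, intronic (chr15:97992981-97993240), with a signal of 1.78 in replicate 1 and 8.56 in replicate 2.

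The windows also differed between libraries. In 39 of the 44 windows replicate 2 had more peaks, in 3 the numbers were equal, and only Col6a1 and Col23a1 had more in replicate 1. The list of replicate 2 is also the longer one, with 258342 peaks against 66984. Over all protein-coding genes the median window held 2 peaks in replicate 1 and 5 in replicate 2, and over collagens 4.5 and 18. Peaks found in 1 library formed dense, weak runs over a few genes. Summed over the windows, replicate 2 had 1185 such peaks, and 627 of them lay in the 5 windows with the most. Col4a1 had 169 (median percentile 32.8), Col27a1 146 (23.7) and Col13a1 143 (20.4). Col2a1 had 40 in replicate 2 (median percentile 30.6) and none in replicate 1. Replicate 1 had 160 such peaks, 119 of them in Col23a1 (79, median percentile 3.0) and Col6a1 (40, median percentile 9.5). With all peaks counted, replicate 2 had 13.5 per 10 kb at Col4a1 and 11.5 at Col27a1, above the 95th percentile of all genes, 9.51. Col1a1 (also 9.51 after rounding), Col13a1 (9.26) and Col2a1 (8.35) lay under it. In replicate 1, where that percentile was 2.63, Col6a1 had 12.3, Col1a1 4.89, Col11a2 3.17 and Col23a1 2.74. Of the replicate 1 peaks of Col1a1, 11 were in that library alone, and of those of Col11a2, 1. None of the 19 promoter peaks of Col2a1 overlapped a peak of replicate 1. What causes the runs was not tested. Shared peaks leave out every peak found in 1 library, but the promoter call asked for no overlap. The strongest promoter peak of Col6a6, Col13a1 and Col14a1 in replicate 2 (0.930, 0.785 and 0.577) overlapped no peak of replicate 1, and their overlapping promoter peaks reached 0.555, 0.779 and 0.499. When the promoter peaks had to overlap each other, the same 32 collagens were called, beside 59.6% of all genes.

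**Figure D5:**
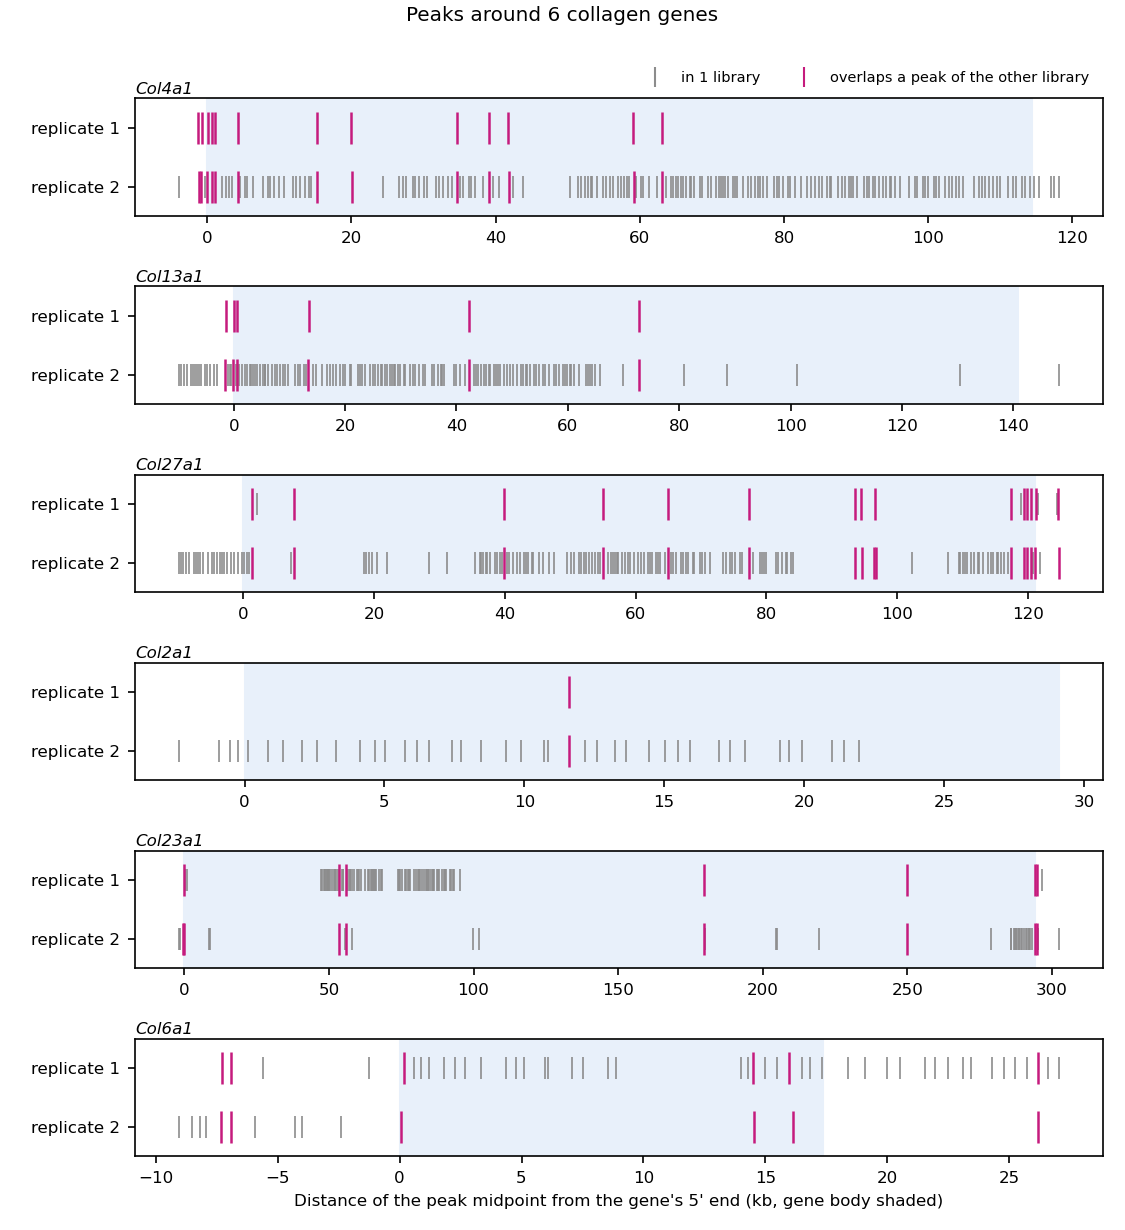
Peak midpoints around 6 collagens by library, in kb from the gene's 5′ end, with the gene body shaded. Magenta ticks overlap a peak of the other library and grey ticks do not; replicate 2 has dense grey runs over Col4a1, Col13a1, Col27a1 and Col2a1, and replicate 1 over Col23a1 and Col6a1.

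Footprints of each library were present in 38 of the 44 collagen windows, beside a background of 71.3%, and a matched footprint in 31, beside a background of 66.0%. Collagen windows are longer, with a median of 134 kb against 37.4 kb. Their median number of matched footprints was 2, against 3 for all genes. Both medians were 2 with footprints inside the library's own peaks only, and with no flank they were 1.5 and 0. Within 1 kb of a start, however, 18 of 44 collagens had a matched footprint, beside a background of 53.9%. By class these were 9 of 11 fibrillar, 2 of 6 type IV, 3 of 6 type VI and 2 of 9 FACIT genes. Col1a1 and Col11a2 had 4 matched sites near a start, Col5a1, Col5a3 and Col6a3 had 3, and Col1a2, Col4a1, Col4a2, Col6a2, Col16a1, Col18a1 and Col25a1 had 2. Col3a1, Col6a5, Col11a1, Col24a1 and Col27a1 had 1. Of the 32 called collagens, 14 (43.8%) had no matched footprint near a start, against 10.5% of all 13187 called genes. Collagen promoter peaks were weaker than those of all called genes, as given above, and the part of signal strength in the footprint count was not tested.

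Letters of known factor motifs were counted on both strands in the 250 bases before the RefSeq start, for the 35 collagens and 16522 genes. GGGCGG, the box of Sp family factors, was present in 57.1% of collagen and 45.7% of all promoters, and CCAAT in 31.4% and 35.8%. TATAAA was in 14.3% and 11.7%, CAGCTG in 17.1% and 11.9%, GGAATG, a TEAD motif, in 11.4% and 11.3%, and TGANTCA, the AP-1 motif, in 2.86% and 6.09%. The SOX motifs ACAAAG and ACAATG were in 11.4% and 14.5%, and in 2.86% and 8.82%. In the 150 bp around the midpoints of shared peaks, CAGCTG was found in 20.8% of the 192 peaks of collagen windows and in 19.0% of all 49160. ACAATG was in 7.29% and 3.53%, ACAAAG in 1.56% and 6.65%, TGANTCA in 7.29% and 6.36%, GGAATG in 10.9% and 8.46%, CCAAT in 17.7% and 19.9%, GGGCGG in 19.3% and 24.5% and TATAAA in 2.60% and 2.48%. The nuclear factor I palindrome was in no collagen promoter or peak and in 0.024% of all promoters and 0.061% of all shared peaks. With 35 promoters and 192 peaks these shares are descriptions, and a match is not a bound site.

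The genes that build, order, bind and cut collagen were scored the same way, beside the same 60.2%. Of 31 processing enzymes and chaperones, 29 were called, with a median percentile of 80.4 in replicate 1 and 95.4 in replicate 2. P3h4 and Fkbp10 had equal strongest promoter signals in each library (1.68 and 4.77) and were counted as 2 genes. P4ha3, a prolyl hydroxylase subunit, had a promoter peak in replicate 2 only, and Loxl2, a cross-linking oxidase, had none. The most shared peaks were at P4ha2 with 30, the procollagen protease gene Adamts2 with 18 and P4hb, the beta subunit of prolyl hydroxylase, with 11. The promoter of P4hb had signals of 24.2 and 66.2, and that of Serpinh1, the collagen chaperone, 2.35 and 4.81.

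Among 14 fibril regulators, 10 were called. Those lacking the call were Bgn, Kera and Aspn, which encode small leucine-rich proteins, and Tnxb, which encodes a tenascin. Sparc had 8 shared peaks, Prelp 7 and Fbln1 5. Of 10 receptors, 7 were called, and Itga10, Gp6 and Lair1, found on chondrocytes, platelets and leukocytes, were not. Ddr2, a collagen-activated kinase, had 10 shared peaks, Mrc2 had 7 and Itga1 had 6. Of 6 collagenases and gelatinases, Mmp2 and its activator Mmp14 were called, with 7 and 3 shared peaks. Mmp9 had 5 promoter peaks in replicate 2 only, and Mmp1b, Mmp8 and Mmp13 had none.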

How the data were processed

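DNase-seq peaks and footprints of 2 gastrocnemius libraries, 1 group, were analysed. The deposited README files say that each library's peaks come from its own filtered alignments, and the build is mm10 per the labels. Which aligner and peak caller made them is not given in the sources used here. The authors gave each peak a signal, whose scale is not stated. A deposited file of cut-rate segments carried a p-value column, read as a false discovery rate up to 0.05, and was not used in the text. The deposited footprints carried a p-value column that is constant, so only positions were used.

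The longer of each library's 2 peak lists was used. A gene was called where both libraries had a peak no more than 1 kb from any GENCODE M21 start. Overlapping peaks (1 bp) were merged into shared peaks and assigned by midpoint to the gene body plus 10 kb. CpG was read 500 bp either side of the 5′ end. Intervals are exact Clopper-Pearson at 95% and cover counting error only. There was no test. Python 3.11.15 with numpy 2.4.6, scipy 1.17.1, pysam 0.24.0 and matplotlib 3.10.9 was used, and overlaps were equal with bedtools 2.31.1. On simulated peaks over 21755 genes, all 200 planted promoter calls were recovered. The peaks were planted at 5′ ends in both libraries, so this checks the counting and not detection in these data.

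The members, lists and alternatives were chosen with earlier results of these data known. By rule the text gives values for the 5 collagens with the most shared peaks and the 5 with the most per 10 kb, the fibrillar, type IV, type VI and cartilage groups, 6 named attachment and basement membrane collagens, windows without peaks, partner genes without the call and the 3 per list with the most shared peaks. Sequence was printed only where it lay outside untranslated regions, so the Col4a1 and Col4a2 promoters, which the rule also named, are not shown; Col1a1 and Col2a1 had no table entry, and Col5a1, Col5a3, Col16a1 and Col9a1 were added to the rule's genes. Mmp1a was not found in the gene set. How alignment of CAST/EiJ alleles to mm10 bears on the peaks was not tested.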

Additional observations from a re-analysis of the deposited data

How the results depend on the processing

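Between 29 and 43 collagens (65.9 to 97.7%) had a shared peak in their window under 8 alternatives, against 51.9 to 89.2% of all genes, and 35 to 43 (79.5 to 97.7%) a footprint of each library under 6, against 57.8 to 84.4%. Collagen promoter calls stayed between 24 and 38 under 8 of 9 alternatives and were 16 with the stronger 50% of each library's peaks. Of collagens and of all genes, the shares were 36.4% and 53.4% with that setting, 54.5% and 53.6% with the shorter lists, and 61.4% and 58.0% with equal numbers. Leaving out each library in turn gave 32 and 38 calls. The median of shared peaks per collagen window, 4, was 4.5 to 18 with 1 library left out, 1.5 with the shorter peak lists, 2 with equal numbers of strongest peaks, 1 with the stronger 50% and 2.5 with no flank. Per 10 kb the collagen and all-gene medians were 0.307 and 0.382 without replicate 2, 0.135 and 0.211 with the shorter lists, and 0.136 and 0.212 with the stronger 50%. The order was the other way without replicate 1 (1.11 and 0.973) and with no flank (0.247 and 0.0776). Keeping 1 library counts peaks of that library alone, and shorter lists hold fewer peaks. The median of matched footprints, 2, was 7.5 to 22.5 with 1 library left out and 5.5 with flanks of 50 kb. With the shorter lists, calls were lost for Col4a5, Col4a6, Col6a6, Col13a1, Col14a1, Col22a1, Col24a1 and Col26a1. No paired analysis was possible because the libraries form 1 group. Depth is unknown, so an absent peak was not detectable here and is not shown to be closed chromatin.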
